A study of Homo sapiens with 15 samples.

Results

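The integrin and laminin genes were taken from the gene tables of the 2 cell lines by symbol: every integrin alpha subunit (ITGA), every integrin beta subunit (ITGB) and every laminin alpha, beta or gamma chain (LAMA, LAMB, LAMC). This gave 38 genes, of 17138 genes listed in either table. They were 18 alpha subunits, 8 beta subunits and 12 laminin chains, with 37 members listed for MRC5 cells and 37 for H196 cells. ITGA8 was analysed in MRC5 cells and ITGAD in H196 cells, and the other 36 members in both. The rule itself read only the gene symbol.

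MRC5 is a human lung fibroblast line, H196 a small cell lung cancer (SCLC) line of the non-neuroendocrine kind, and H69 an SCLC line of the neuroendocrine kind. Poly(A) RNA was sequenced after about a week of culture in 5 groups of 3 libraries: MRC5 alone (MRC5_Mo), MRC5 with H69 (MRC5_coH69), MRC5 with H196 (MRC5_coH196), H196 alone (H196_Mo) and H196 with MRC5 (H196_Co). The labels name no edited gene and no drug in any group, and the partners were kept apart by the porous membrane of a transwell insert. The 2 kinds of cell were grown in different media and the medium of the co-cultures is not given in the sources used here, so medium and partner cannot be told apart, and neither can medium and line. The gene tables of the 2 lines were made separately, so FPKM levels are set across the lines as deposited, and tests and ratios between the lines used the expected counts. Nothing says that the 3 libraries of a group came from separate experiments, so the p-values measure only the spread between these libraries, which may be technical.

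Integrins are cell surface receptors made of 1 alpha and 1 beta subunit that bind the extracellular matrix outside the cell and adaptor proteins of the actin cytoskeleton inside it. The alpha subunit largely sets the ligand: ITGA1, ITGA2, ITGA10 and ITGA11 serve collagen receptors, ITGA3, ITGA6 and ITGA7 laminin receptors, and ITGA5, ITGA8, ITGAV and ITGA2B receptors for ligands with the RGD motif such as fibronectin. Laminins are cross-shaped trimers of an alpha, a beta and a gamma chain and are the main adhesive proteins of basement membranes, which carry the airway epithelium and the vessels of the lung.

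Library totals ranged from 16073584 to 19170550 expected counts. All 12 fibroblast markers stood at 1 FPKM (fragments per kilobase of transcript, scaled to library size) or more in each MRC5 library, and their summed level in H196 libraries was 4.75 to 7.68 FPKM. All 8 non-neuroendocrine SCLC markers stood at 1 FPKM or more in each H196 library, but also in each MRC5 library, so they do not set the lines apart. Of 12 neuroendocrine SCLC markers CHGB, SCG2, SYP and DLL3 also reached 1 FPKM in each H196 library. The summed level of that list was 52.4 to 55.9 FPKM in H196 libraries and 0.56 to 1.18 in MRC5 libraries. As a measure of partner RNA, 99 genes with at least 20 CPM (counts scaled to library size) in H196_Mo and under 0.5 CPM in MRC5_Mo summed to 9.49 to 10.4 CPM in MRC5_Mo, 8.68 to 10.8 CPM in MRC5_coH69 and 23.9 to 62.4 CPM in MRC5_coH196. In MRC5_coH196 this was 0.297% to 0.777% of the level in H196_Mo. In the other direction 160 MRC5 genes summed to 19.01 to 21.1 CPM in H196_Co, against 15.6 to 16.1 CPM in H196_Mo. H69 cells themselves were not analysed here, so their RNA in MRC5_coH69 was not measured. In bulk RNA, fewer cells of a type and less RNA per cell cannot be told apart.

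Which receptors and chains each line carries was asked first, since it sets the background for the co-cultures. Both lines listed ITGB1, the beta subunit shared by most integrins, far above every other member. It stood at 1088, 1063 and 1028 FPKM in MRC5_Mo and at 411, 381 and 399.9 FPKM in H196_Mo. It made up 93.0% ± 0.2 (SD, n = 3) of the summed beta subunit FPKM in MRC5_Mo and 88.0% ± 0.9 in H196_Mo. ITGB5, which pairs with ITGAV, came next with 6.2% ± 0.21 and 10.7% ± 0.75. All other beta subunits were below 1% of the sum in both mono-cultures.

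Among the alpha subunits the lines differed in order. ITGA5, the fibronectin receptor subunit, led in MRC5_Mo with 175, 181 and 175 FPKM, or 43.8% ± 0.43 of the summed alpha FPKM, against 15.6, 15.8 and 17.3 FPKM and 6.64% ± 0.47 in H196_Mo. ITGA3, which forms a laminin receptor with ITGB1, led in H196_Mo with 106, 115 and 112 FPKM and 45.5% ± 2.7, against 101, 102 and 105 FPKM and 25.3% ± 0.52 in MRC5_Mo. ITGA6, the other main laminin receptor subunit, followed in H196_Mo with 62.04, 54.2 and 53.9 FPKM and 23.2% ± 1.4. The laminin receptor subunits together filled most of the alpha class in H196 cells, and ITGA5 alone held the largest share in MRC5 cells. The collagen receptor subunit ITGA11 had 1291 to 1645 counts in MRC5_Mo and 1 count in each H196_Mo library, a ratio of 1347 with a 95% counting interval of 460.5 to 6532. In the opposite direction ITGAM, a leukocyte subunit, had 131 to 143 counts in H196_Mo and 1 count in all 3 MRC5_Mo libraries together.

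The laminin chains differed between the lines as well. LAMA4, the alpha chain of mesenchymal and vessel laminins, stood at 48.4, 42.3 and 39.6 FPKM in MRC5_Mo and at 0.11, 0.05 and 0.08 FPKM in H196_Mo. LAMA5, an alpha chain of epithelial and vessel basement membranes, stood at 7.9, 7.27 and 7.05 FPKM in MRC5_Mo and at 14, 16.5 and 15.3 FPKM in H196_Mo. LAMA4 was 74.8% ± 1.2 of the alpha chain FPKM in MRC5_Mo, and LAMA5 was 90.04% ± 1.1 in H196_Mo. LAMB3, a beta chain of the laminin that anchors epithelia, was 31.5% ± 0.34 of the beta chain FPKM in H196_Mo and 1.69% ± 0.095 in MRC5_Mo.

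In the test across all genes (edgeR's quasi-likelihood test, Benjamini-Hochberg adjustment over 13585 genes), 31 of the 36 shared members had enough counts in either line or in both. ITGA2B, ITGAM, ITGB2, ITGB6 and LAMC3 passed this filter only through H196 cells, and ITGA11, LAMA1 and LAMA4 only through MRC5 cells. The direction of their calls was set by that filter, so the counts that follow are not read as support for these members. A DEG (differentially expressed gene) here has an adjusted p under 0.05 and a log2 fold change beyond 0.58 in size. MRC5_Mo was higher in 16 and lower in 12 of the 31 members as DEGs, against 30.2% and 31.5% of all genes tested. Among members with over 20 pooled counts in each line, and leaving out those that passed through 1 line only, the largest log2 differences toward MRC5_Mo were ITGA7 (4.52), ITGA1 (3.91) and ITGA5 (3.89). ITGA10 (-2.92), ITGB4 (-2.87) and LAMB3 (-2.39) were among those lower in MRC5_Mo. ITGA3 and ITGAV had log2 differences of only 0.32 and 0.40, and with library totals alone in place of TMM scaling both came out negative, at -0.10 and -0.02. With that scaling the median of all genes was -0.45 in place of -0.03, and over all genes 2874 were higher and 6126 lower as DEGs in place of 4100 and 4279. On log2(FPKM + 1) ITGA3 was -0.12 and passed in limma (adjusted p = 0.037), opposite to the main fit.

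**Figure D1:**
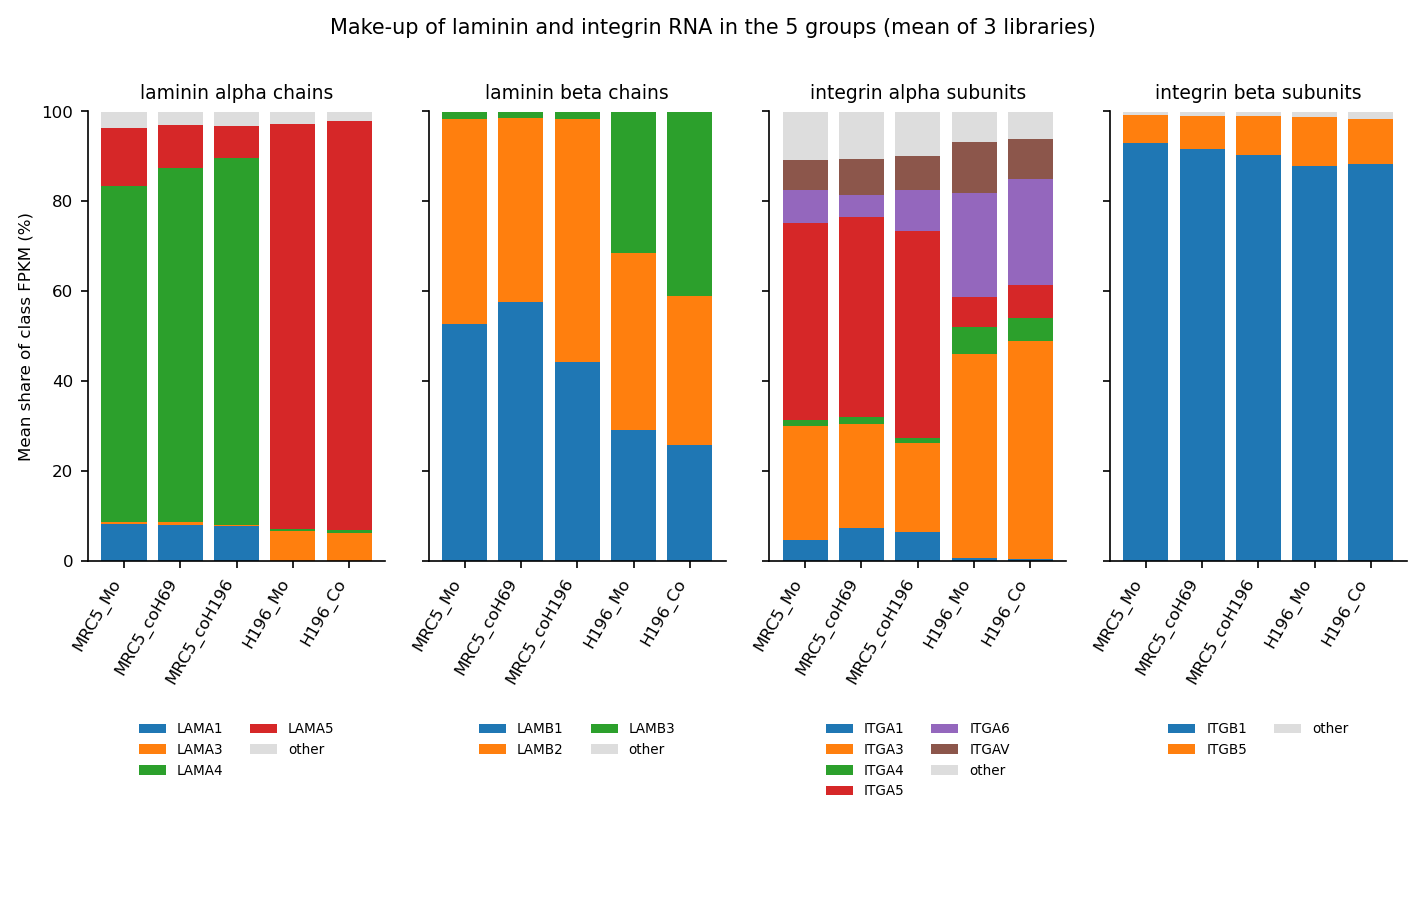
Stacked bars of the mean share (%) of each gene in the summed FPKM of its class, for laminin alpha and beta chains and integrin alpha and beta subunits, in the 5 groups (mean of 3 libraries each; genes under 5% in every group are joined as other). LAMA4 fills 74.8% of the alpha chain bar in MRC5_Mo and LAMA5 90.0% in H196_Mo, and LAMB2 overtakes LAMB1 in MRC5_coH196.

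Fibroblasts with H196 cells were then compared with fibroblasts alone, to ask how the matrix receptors responded to a non-neuroendocrine tumor line. The beta subunits rose: ITGB3, ITGB8 and ITGB5, all partners of ITGAV, each rose by over 1 on the log2 scale of the TMM-scaled fit, and ITGB1 and the hemidesmosomal subunit ITGB4 rose with them. The alpha subunits moved in both directions, ITGA10 and ITGA8 being the DEGs that fell. Among laminin chains LAMB2 rose, and LAMA5 and LAMA3 fell. Of 27 members tested among 12819 genes, 16 rose and 7 fell at an adjusted p under 0.05, against 37.2% and 37.1% of all genes. As DEGs 6 rose and 4 fell, against 17.2% and 14.7%. The median log2 fold change was 0.20 over the members tested and -0.003 over all genes. In scaled CPM, MRC5_coH196 libraries lay wholly above MRC5_Mo for 37.7% of all genes and wholly below for 37.9%. For MRC5_coH69 against MRC5_Mo these shares were 13.6% and 12.1%, and for MRC5_coH196 against MRC5_coH69 35.9% and 37.2%. Groups that do not overlap are therefore common, and this trait alone does not set a member apart. With library totals alone the median of all genes was -0.18, 5 members were higher and 5 lower as DEGs, and over all genes 1530 and 2978 in place of 2207 and 1885.

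ITGB3, the beta subunit of the vitronectin receptor, stood at 7.77, 7.72 and 7.93 FPKM in MRC5_Mo, 12.8, 12.03 and 10.9 in MRC5_coH69 and 15.01, 14.9 and 16.03 in MRC5_coH196. The 3 groups did not overlap, and the co-culture with H196 was the highest. Its log2 fold change was 1.15 (SE 0.06, adjusted p = 4.31e-15) with H196 and 0.62 (SE 0.06, adjusted p = 7.8e-08) with H69. ITGB5, a receptor subunit for vitronectin and latent TGF-beta, stood at 69.7, 70.9 and 70.98 FPKM, 88.3, 88.9 and 81.6 and 137, 135 and 130.4 in the same order of groups. It showed the same order of non-overlapping groups, with 1.11 (SE 0.04, adjusted p = 3.32e-17) with H196 and 0.30 (SE 0.04, adjusted p = 6.05e-05) with H69. ITGB8, the third of these ITGAV partners and likewise able to bind latent TGF-beta, was far lower, at 0.80, 0.75 and 0.71 FPKM, 0.84, 0.92 and 1.05 and 1.23, 1.76 and 1.48. Its groups did not overlap either. The log2 fold change was 1.14 (SE 0.12, adjusted p = 5.69e-09) with H196, and 0.33 with H69 (adjusted p = 0.139), which did not pass. ITGB6, the remaining ITGAV partner, had 1 count at most in any MRC5 library.

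ITGAV itself stood at 28.3, 27.3 and 25.8 FPKM in MRC5_Mo, 32.1, 32.05 and 32.97 in MRC5_coH69 and 25.7, 30.97 and 29.5 in MRC5_coH196. Its FPKM overlapped between MRC5_coH196 and MRC5_Mo. The fit with TMM scaling gave log2 fold changes of 0.25 (SE 0.05, adjusted p = 0.000112) with H196 and 0.27 (SE 0.05, adjusted p = 0.00166) with H69, and with library totals alone the first was 0.08 (adjusted p = 0.176). ITGB1 stood at 1095, 1096 and 1137 FPKM with H69 and 1348, 1523 and 1390.1 with H196, against the 1028 to 1088 FPKM of fibroblasts alone. Every MRC5_coH196 library was above every other MRC5 library, with 0.59 (SE 0.04, adjusted p = 2.52e-12). ITGB1 lay at the fold limit: without MRC5_coH196 replicate 2 it was 0.56 and without MRC5_Mo replicate 3 it was 0.57, both short of it. The summed beta subunit FPKM was 1139 ± 29 (SD, n = 3) in MRC5_Mo, 1209 ± 19 in MRC5_coH69 and 1572 ± 92 in MRC5_coH196. The summed alpha subunit FPKM was 404 ± 5.4, 403 ± 15 and 380 ± 4.7 in the same order. On log2(FPKM + 0.1) the median of all genes was -0.18 with H196, so no direction is read from the alpha sum.

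ITGB4 pairs with ITGA6 in hemidesmosomes, the junctions that hold epithelial cells to the basement membrane. It lies at chr17:75721339-75757819 in GRCh38.p13. Its levels in fibroblasts were low: 9, 14 and 10 counts in MRC5_Mo, 11, 13 and 9 in MRC5_coH69 and 28, 15 and 26 in MRC5_coH196. Every MRC5_coH196 library held more counts than every MRC5_Mo library, by a margin of 1 count between 15 and 14. The log2 fold change was 1.21 (SE 0.31, adjusted p = 0.00113) with H196, and 0.01 (SE 0.36, adjusted p = 0.994) with H69. Pooled over libraries the ratio of 69 to 33 counts was 2.07 with a 95% interval of 1.35 to 3.23 for counting error only. In FPKM the libraries lay between 0.09 and 0.14 in MRC5_Mo and between 0.15 and 0.29 in MRC5_coH196, against 1.03, 1.13 and 1.06 in H196_Mo. At the measured share of partner RNA, the ITGB4 counts of H196_Mo, not scaled to library totals, would add 0.296 to 0.775 counts to an MRC5_coH196 library.

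The hemidesmosome partners were listed beside it. Of 7 genes on that list 5 were tested and 4 rose in MRC5_coH196, against 37.2% of all genes, with ERBIN, a protein that binds ITGB4, as the 1 DEG, against 17.2% (log2 fold change 0.64, SE 0.04). Their median log2 fold change was 0.14. In MRC5_coH69 1 of the 5 fell and 4 did not pass.

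**Figure D2:**
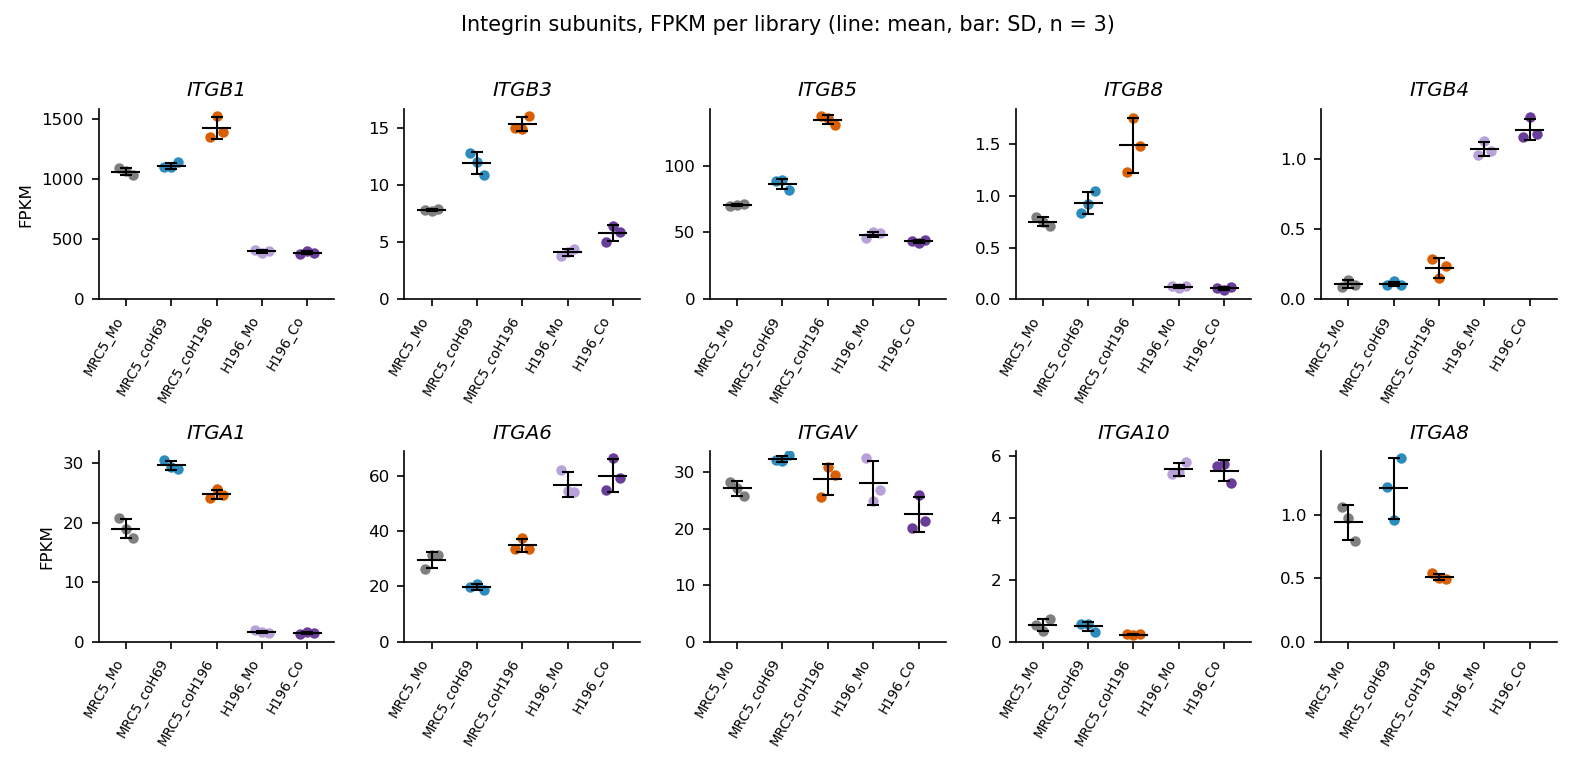
FPKM of 10 integrin subunits in each library of the 5 groups (points), with the mean (line) and SD (bar) of 3 libraries; each y axis starts at 0 and ITGA8 was analysed in MRC5 cells only. ITGB3 and ITGB5 are higher with H69 than alone and higher again with H196, whereas ITGA6 is lowest with H69 and highest among MRC5 groups with H196.

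The laminin receptor subunits moved in different directions. ITGA6 stood at 26.3, 31.2 and 31.2 FPKM in MRC5_Mo, 19.9, 20.9 and 18.8 in MRC5_coH69 and 33.4, 37.6 and 33.6 in MRC5_coH196. The 3 groups did not overlap, with MRC5_coH69 lowest and MRC5_coH196 highest. It rose with H196 (0.40, SE 0.06, adjusted p = 9.73e-07) and fell with H69 (-0.55, SE 0.06, adjusted p = 9.2e-07), and the direct comparison of the co-cultures gave 0.95 (SE 0.06, adjusted p = 3.53e-13). At the measured share, partner RNA would add 15.1 to 39.5 ITGA6 counts to a library of 3416 to 3668. ITGA3 fell with H196 (-0.27, SE 0.05, adjusted p = 1.72e-05), from 101, 102 and 105 FPKM to 77.1, 74.3 and 74.6, and stood at 99.8, 93.95 and 87.3 with H69. Its 3 groups did not overlap, although the difference of -0.11 with H69 did not pass (adjusted p = 0.153). ITGA7, a laminin receptor subunit best known in muscle, rose by 0.20 with H196 (adjusted p = 0.00148) but was 0.03 with library totals alone (adjusted p = 0.64).

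Of the collagen receptor subunits, ITGA1 rose in both co-cultures. It stood at 20.7, 18.9 and 17.4 FPKM in MRC5_Mo, 30.5, 29.4 and 29.1 in MRC5_coH69 and 24.04, 25.6 and 24.6 in MRC5_coH196, with no overlap. The log2 fold change was 0.55 (SE 0.05, adjusted p = 3.44e-10) with H196 and 0.66 (SE 0.05, adjusted p = 2.34e-09) with H69. Between the co-cultures it was -0.10 (SE 0.05, adjusted p = 0.0691), which did not pass. Its expected counts were fractional, as they are where reads are split between overlapping genes, so its level is uncertain to that extent. ITGA10, a subunit best known from cartilage, fell from 43, 30 and 63 counts to 23, 16 and 18 (-1.09, SE 0.28, adjusted p = 0.00125), and held 52, 42 and 28 with H69, overlapping MRC5_Mo. ITGA2 fell by 0.26 with H196, and ITGA11 was 0.05 (SE 0.06, adjusted p = 0.501).

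ITGA5, the most abundant alpha subunit of these fibroblasts, moved little. It stood at 180.2, 187 and 171 FPKM with H69 and 178, 173 and 173 with H196, both overlapping the 175.0 to 181.1 FPKM of MRC5_Mo. With TMM scaling it passed with H196 at 0.15 (adjusted p = 0.00347), and with library totals alone it was -0.03 (adjusted p = 0.564), so its direction depends on the scaling. ITGA8, a receptor subunit of smooth muscle and other mesenchymal cells, fell with H196 from 124, 114 and 91 counts to 62, 56 and 59. It held 138, 112 and 156 counts with H69, so its lowest libraries were those with H196, with -0.73 (SE 0.15, adjusted p = 0.000123) against MRC5_Mo and -1.05 (SE 0.15, adjusted p = 6.95e-07) against MRC5_coH69. ITGA2B, the platelet subunit, was too low for the test in MRC5 cells, with 1, 3 and 1 counts in MRC5_Mo, 0, 2 and 2 in MRC5_coH69 and 14, 15 and 9 in MRC5_coH196. Its pooled ratio with H196 was 7.51 with a counting interval of 2.95 to 24.5, and the measured share of partner RNA would add 0.235 to 0.614 counts. Platelet markers summed to 0.11 FPKM at most in any MRC5 library.

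ITGAE, a subunit best known from intraepithelial T cells, fell by 0.53 with H196, from 182 to 222 counts to 118 to 131. It held 199 to 251 counts with H69. Its expected counts were fractional in 5 of the 9 MRC5 libraries, so its level is uncertain in the same way. The other leukocyte subunits, ITGAL, ITGAM, ITGAX, ITGB2 and ITGB7, together with ITGA9, held at most 9 counts in any MRC5 library. Of 10 leukocyte markers 7 were in the MRC5 table, and 2 of them reached 1 FPKM in all libraries of each MRC5 group. The pan-leukocyte gene PTPRC had 1 count at most. The summed level of the list was 57.4 to 63.7 FPKM in MRC5_Mo, 46.4 to 53.4 in MRC5_coH69 and 76.6 to 83.5 in MRC5_coH196, most of it CD68, a lysosomal protein of macrophages that other cells also make (51.1 to 57.6 FPKM in MRC5_Mo and 74.9 to 81.6 in MRC5_coH196). CORO1A, an actin-binding protein of leukocytes, went the other way, from 5.32 to 5.82 FPKM down to 1.09 to 1.59. By the test CD68 rose and CORO1A fell with H196, each as a DEG, and their part in the ITGAE values was not tested.

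Turning to the laminins, LAMB2 rose with H196 and not with H69. This beta chain is known from vessel, kidney and neuromuscular basement membranes. It stood at 90.4, 91.5 and 92.1 FPKM in MRC5_Mo, 95.8, 95.5 and 87.7 in MRC5_coH69 and 145, 133 and 138 in MRC5_coH196. The 3 MRC5_coH196 libraries lay above all other MRC5 libraries, with 0.78 (SE 0.05, adjusted p = 1.06e-13), whereas MRC5_coH69 gave 0.04 (SE 0.05, adjusted p = 0.699). The direct comparison of the co-cultures gave 0.74 (SE 0.05, adjusted p = 3.71e-13). LAMB1, the beta chain of most early and mesenchymal laminins, stood at 120.1, 100.4 and 97.2 FPKM, 132, 129 and 133 and 111, 116 and 113. MRC5_Mo replicate 1 stood above the other libraries of its group and overlapped MRC5_coH196, while MRC5_coH69 lay above both groups. Its log2 fold change was 0.33 (SE 0.05, adjusted p = 0.000348) with H69 and 0.27 (SE 0.05, adjusted p = 7.89e-05) with H196, the latter 0.10 (adjusted p = 0.0956) with library totals alone.

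As shares, LAMB2 went from 45.6% ± 3 of the beta chain FPKM in MRC5_Mo to 54.1% ± 1.6 with H196 and to 40.8% ± 1.5 with H69. LAMB1 went from 52.7% ± 3 to 44.3% ± 1.6 and 57.7% ± 1.5. The libraries of MRC5_coH196 and MRC5_coH69 did not overlap in either share, and LAMB2 held the larger share in every MRC5_coH196 library and LAMB1 in every MRC5_coH69 library. Over all classes 103 differences in share were tested with exact two-sided permutation tests. With 3 libraries against 3 the smallest p is 0.1, and 0.136 after Benjamini-Hochberg adjustment, so none could pass.

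LAMA5 fell in both co-cultures, and was lower with H196 than with H69 (-0.33, SE 0.05, adjusted p = 7.14e-06). It stood at 7.9, 7.27 and 7.05 FPKM in MRC5_Mo, 5.98, 5.89 and 5.85 in MRC5_coH69 and 3.95, 4.39 and 4.32 in MRC5_coH196. The groups did not overlap, and the log2 fold change was -0.64 (SE 0.05, adjusted p = 5.91e-11) with H196 and -0.31 (SE 0.05, adjusted p = 0.00026) with H69. LAMA4, the dominant alpha chain, stood at 48.9, 47.8 and 51.8 FPKM with H69 and 44.6, 48.9 and 54.1 with H196, overlapping MRC5_Mo in both. It rose by 0.32 with H196 (adjusted p = 5.55e-05), and was 0.19 with H69 (adjusted p = 0.0644). With limma on log2(FPKM + 1) the first was 0.18 (adjusted p = 0.0575), so its call was lost on that scale. Of the alpha chain FPKM, LAMA4 held 81.5% ± 0.57 with H196 and LAMA5 7.02% ± 0.4. LAMC1, the gamma chain of most laminins, stood at 106, 103 and 97.7 FPKM in MRC5_Mo, 105, 103 and 104 in MRC5_coH69 and 103, 105 and 105 in MRC5_coH196, with the groups overlapping. Its log2 fold change of 0.20 with H196 passed (adjusted p = 9.15e-05) but was 0.02 with library totals alone (adjusted p = 0.58).

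LAMA3, the alpha chain of the epithelial anchoring laminin, lies at chr18:23689443-23955066 in GRCh38.p13. It was low in fibroblasts and moved in opposite directions in the 2 co-cultures. It held 26, 24 and 27 counts in MRC5_Mo, 51, 42 and 40 in MRC5_coH69 and 12, 12 and 11 in MRC5_coH196. In counts the 3 groups did not overlap, lowest with H196 and highest with H69. In FPKM, MRC5_Mo (0.14 to 0.2) and MRC5_coH196 (0.11 to 0.14) met at 0.14. The log2 fold change was -0.97 (SE 0.27, adjusted p = 0.00205) with H196, 0.79 (SE 0.20, adjusted p = 0.0158) with H69 and -1.77 (SE 0.24, adjusted p = 3.86e-07) between the co-cultures. Leaving out 1 library kept the fall with H196 (-1.02 to -0.93) and the difference between co-cultures (-1.83 to -1.66). The rise with H69 lost its call without MRC5_coH69 replicate 1 (adjusted p = 0.104), MRC5_Mo replicate 2 (0.0896) or MRC5_Mo replicate 3 (0.0539). On log2(FPKM + 0.1) the 2 changes were -0.26 and 0.62, with adjusted p-values of 0.283 and 0.152 in limma, so neither call was kept on that scale. LAMB3, its beta chain partner, rose with H196 (0.41, SE 0.08, adjusted p = 2.68e-05), from 3.45, 3.23 and 3.46 FPKM to 4.08, 4.01 and 3.91, and was -0.03 with H69 (adjusted p = 0.888). Partner RNA at the measured share would add 4.83 to 12.6 LAMB3 counts to libraries of 294 to 311, against 245 to 257 in MRC5_Mo. That takes the H196_Mo mean of 1622 counts, not scaled to library totals. The H196_Co libraries held 2407 to 2480 LAMB3 counts, with lower totals than MRC5_coH196 libraries, so the addition could be larger.

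Several laminin chains moved little in fibroblasts. LAMA1, an alpha chain of early embryonic basement membranes, lay between 4.62 and 5.21 FPKM in all 9 MRC5 libraries. It passed with H196 at 0.16 (adjusted p = 0.00917), and was -0.01 with library totals alone and 0.11 (adjusted p = 0.0903) without MRC5_coH196 replicate 3. LAMA2, the alpha chain of muscle basement membranes, lay between 1.69 and 2.2 FPKM and did not pass in either co-culture (0.08 with H196 and -0.10 with H69). LAMB4 had 6 counts at most and LAMC3 7 counts at most in any MRC5 library. ITGA4, the subunit of a receptor for fibronectin and VCAM1, was -0.11 with H196 and 0.19 with H69, and neither passed.

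**Figure D3:**
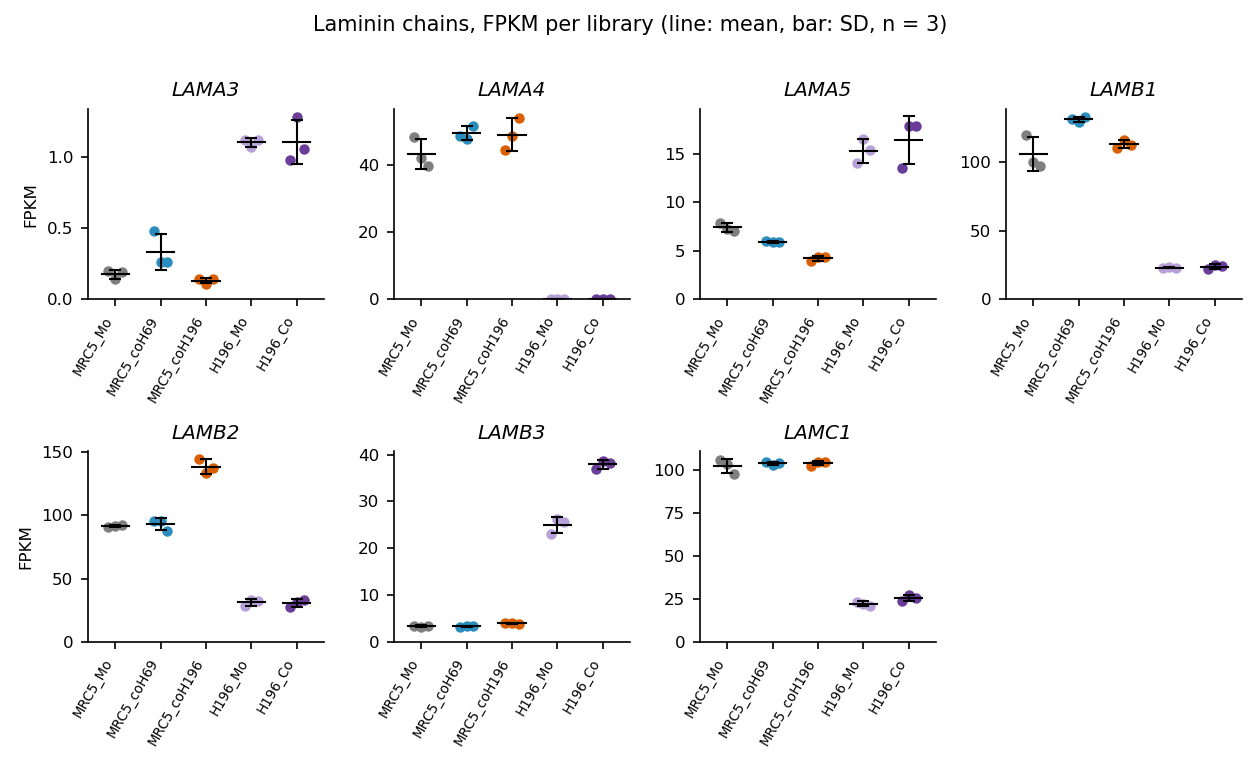
FPKM of 7 laminin chains in each library of the 5 groups (points), with the mean (line) and SD (bar) of 3 libraries; each y axis starts at 0. LAMB2 is raised in MRC5_coH196 alone among MRC5 groups, LAMA5 steps down from MRC5_Mo to MRC5_coH69 to MRC5_coH196, and LAMB3 is higher in H196_Co than in H196_Mo.

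Promoter sequences are shown for 4 members: LAMA3 and LAMB3, as the chains of 1 trimer that moved apart in MRC5_coH196, and ITGB8 and LAMA5 as a beta subunit that rose and an alpha chain that fell. Each is the 250 bases before a RefSeq start in GRCh38.p14, 5′ to 3′ on the gene's strand, with capitals for matches on either strand to TGANTCA (the AP-1 motif) or GGGCGG (the GC box).
LAMA3 (chr18:23872770-23873019, + strand): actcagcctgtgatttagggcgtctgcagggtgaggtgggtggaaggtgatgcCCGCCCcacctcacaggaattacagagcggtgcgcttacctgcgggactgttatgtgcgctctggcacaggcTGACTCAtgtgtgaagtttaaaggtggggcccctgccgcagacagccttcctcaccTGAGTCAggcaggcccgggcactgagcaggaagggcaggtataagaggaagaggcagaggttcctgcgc
LAMB3 (chr1:209651375-209651624, - strand, 1 of 3 starts): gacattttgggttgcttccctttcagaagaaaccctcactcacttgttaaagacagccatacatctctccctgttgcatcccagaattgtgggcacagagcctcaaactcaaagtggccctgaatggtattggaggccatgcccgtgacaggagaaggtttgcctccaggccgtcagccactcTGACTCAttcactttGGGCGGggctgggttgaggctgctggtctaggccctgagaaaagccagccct
ITGB8 (chr7:20330650-20330899, + strand): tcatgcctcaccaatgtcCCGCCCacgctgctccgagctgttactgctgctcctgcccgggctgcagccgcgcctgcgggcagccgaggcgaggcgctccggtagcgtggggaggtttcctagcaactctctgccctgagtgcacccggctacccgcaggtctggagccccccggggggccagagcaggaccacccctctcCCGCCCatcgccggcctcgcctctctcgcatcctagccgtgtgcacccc
LAMA5 (chr20:62367313-62367562, - strand): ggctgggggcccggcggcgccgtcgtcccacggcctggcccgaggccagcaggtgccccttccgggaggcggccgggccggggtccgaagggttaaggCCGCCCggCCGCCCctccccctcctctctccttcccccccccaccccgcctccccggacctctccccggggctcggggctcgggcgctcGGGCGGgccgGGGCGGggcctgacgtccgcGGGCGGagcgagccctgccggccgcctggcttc

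RefSeq gave such windows for 26 of the 38 members, 33 windows in all. The AP-1 letters were found in 2 of these windows, those of LAMA3 and LAMB3 printed above, or 6.06% of member windows against 6.57% of all 35116 windows. LAMA3 held 2 matches, which begin 125 and 69 bases before the start, and LAMB3 held 1, which begins 67 bases before it. The printed windows of LAMA3, LAMB3 and ITGB8 lie within the listed spans of these genes, so their starts are not the outermost ones. For LAMA3 that span is chr18:23689443-23955066, with 25 transcripts listed. The counts tested are of whole genes and are not split by start. The GC box was found in 17 member windows, or 51.5%, against 42.6% of all, with 5 matches in LAMA5 and 2 in ITGB8. The E-box CACGTG was found in 1 member window, of ITGA6, or 3.03% against 6.34%, and the TEAD letters ACATTCC in 0 against 2.96%. A match is a description of the letters and not of binding.

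Fibroblasts with H69 cells, the neuroendocrine partner, were compared with the same MRC5_Mo libraries, so the 2 comparisons share their controls. Against MRC5_Mo, 7 of 27 members rose and 2 fell, where 3.78% and 2.93% of all genes did. As DEGs 3 rose (LAMA3, ITGA1 and ITGB3) and none fell, against 0.421% and 0.133% of all genes. At an unadjusted p under 0.05 in edgeR 11 were higher and 5 lower. The share over all genes at that limit is not given here, so these 2 counts are not read as a result. DESeq2 gave 2 DEGs higher and 0 lower among the members, and 35 and 9 over all genes. The others that rose were ITGB5, LAMB1, ITGAV and ITGA11 (0.22, adjusted p = 0.0285), and those that fell were ITGA6 and LAMA5. ITGA11 lost its call without MRC5_coH69 replicate 1 or 2 or MRC5_Mo replicate 2 or 3, with adjusted p-values of 0.084 to 0.264. The median log2 fold change was 0.08 over members tested and -3.49e-05 over all genes. Without MRC5_coH69 replicate 1 the DEGs were reduced to ITGA1, since LAMA3 lost its adjusted p and ITGB3 went to 0.56.

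Between the co-cultures, MRC5_coH196 was higher than MRC5_coH69 in 12 members and lower in 9, against 35.7% and 36.6% of all genes. As DEGs 5 were higher and 4 lower, against 15.2% and 13.1%. With library totals alone 4 were higher and 4 lower, and over all genes 1369 and 2628 in place of 1943 and 1675. Those higher with H196 were ITGB4 (1.20), ITGA6 (0.95), ITGB5 (0.81), ITGB8 (0.81) and LAMB2 (0.74). Those lower were LAMA3 (-1.77), ITGA8 (-1.05), ITGA10 (-0.94) and ITGAE (-0.72). ITGB1 and ITGB3 were also higher, by 0.52 and 0.52, under the fold limit.

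**Figure D4:**
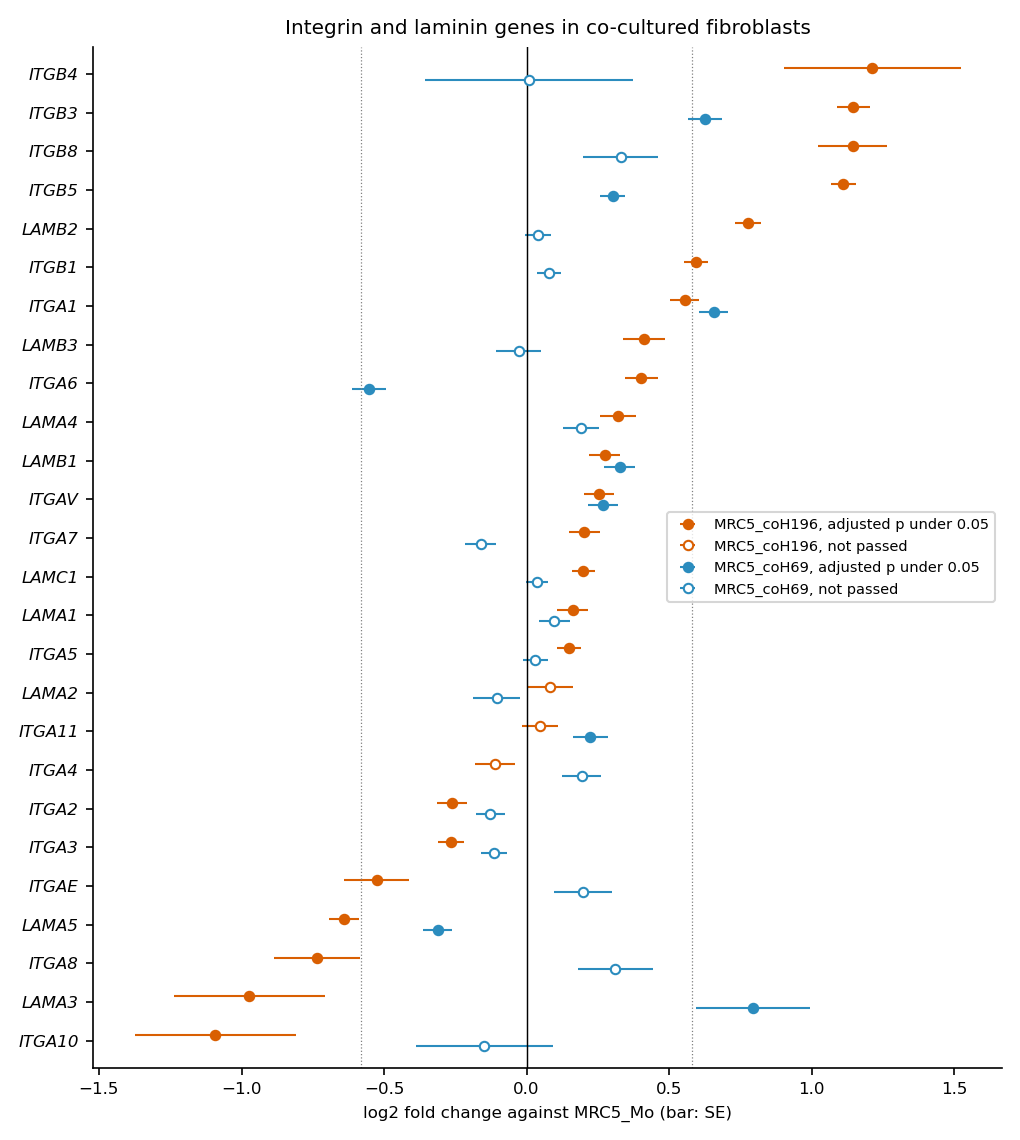
Log2 fold change against MRC5_Mo (x axis) of 26 members tested in MRC5 cells, with H196 (orange) and with H69 (blue); bars are SE, filled points have an adjusted p under 0.05 and dotted lines mark the fold limit of 0.58. LAMA3 and ITGA6 lie on opposite sides of 0 in the 2 co-cultures, and ITGB3, ITGB5, ITGA1, LAMB1 and ITGAV lie to the right of 0 in both with filled points.

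The proteins that link integrins to the cell interior and the matrix around laminins were read from lists of other genes. Of 28 integrin adaptors and signalling genes 12 rose and 9 fell in MRC5_coH196, 5 and 4 of them as DEGs, with a median of 0.03. Over all genes 37.2% rose and 37.1% fell, 17.2% and 14.7% as DEGs, so the DEGs on this list were close to the share over all genes. BCAR1, a docking protein phosphorylated at adhesions, rose by 1.299 (SE 0.05), TNS1, which ties integrins to actin, by 1.29 and LIMS1, a partner of integrin-linked kinase, by 0.93. The 4 DEGs that fell were the kindlin FERMT1 (-1.89), the tensin TNS2 (-0.67), the focal adhesion protein ZYX (-0.61) and RSU1 (-0.59), a protein bound to LIMS1. In MRC5_coH69 6 of the 28 rose, all below the fold limit, and the other 22 did not pass, against 3.78% that rose over all genes. Of 18 basement membrane partners tested 10 rose and 5 fell with H196, with DEGs in COL15A1 (0.84), FBLN2 (0.81) and the collagen IV chain COL4A2 (0.62). With H69 4 rose, COL4A1 at 0.58 being the DEG, and 14 did not pass.

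Of 18 other integrin ligands tested, 11 rose and 4 fell with H196, against 37.2% and 37.1% of all genes. As DEGs 8 rose and 3 fell, against 17.2% and 14.7% of all genes, and the list median was 0.48. L1CAM, an adhesion molecule that binds ITGAV and ITGA5 receptors, rose by 2.15, THBS2, a matricellular protein, by 1.44 and CCN1, a ligand of ITGAV receptors, by 1.25. The 3 DEGs that fell were VCAM1, a ligand of ITGA4 receptors (-2.37), the matricellular protein TNC (-0.78) and the microfibril protein FBN1 (-0.61). Of the 10 tetraspanins and associated membrane proteins 7 rose and 1 fell, against the same 37.2% and 37.1%. CD9 was the 1 DEG at 0.63, against 17.2% of all genes. Fibroblast markers were summed at 3504 to 3673 FPKM in MRC5_coH196, against 5988 to 6661 in MRC5_Mo and 6845 to 7020 in MRC5_coH69. Of the 12 markers 6 rose and 4 fell in MRC5_coH196, against 37.2% and 37.1% of all genes. The part of this shift in the member changes was not tested.

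In the tumor cells, H196_Co was compared with H196_Mo to ask whether the fibroblasts changed the receptors of H196 cells. Among those that rose were the laminin chains LAMB3, LAMC1 and LAMC3 and the integrins ITGB3, ITGA2B, ITGA5 and ITGA3. Of 28 members tested among 12806 genes 8 rose and none fell, against 12% and 7.78% of all genes. LAMB3 was the 1 DEG that was higher, and none was lower, against 3.26% and 0.601%. Besides these, 1 more member was higher and 1 (ITGAV) lower at an unadjusted p under 0.05 in edgeR. The share over all genes at that limit is not given here, so this is not read as a result. DESeq2 also gave 1 DEG higher and 0 lower among the members, and 316 and 58 over all genes. Over all genes 417 were higher and 77 lower as DEGs, and 320 and 141 with library totals alone. The median was 0.09 over the members tested and -0.00146 over all genes. In scaled CPM, H196_Co libraries lay wholly above H196_Mo for 20.2% of all genes and wholly below for 17%.

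LAMB3 stood at 23.1, 26.3 and 25.6 FPKM in H196_Mo and 36.9, 38.7 and 38.2 in H196_Co. Every co-cultured library was above every mono-cultured one, with 0.67 (SE 0.07, adjusted p = 1.82e-06), and its share of the beta chain FPKM went from 31.5% ± 0.34 to 41.1% ± 1.5. LAMA3, the alpha chain of the same trimer, stood at 1.12, 1.07 and 1.12 FPKM and 0.98, 1.28 and 1.06. Its groups overlapped, with 0.06 (SE 0.13, adjusted p = 0.769), and the sign turned with library totals alone (-0.01). LAMC1 rose by 0.28 and LAMC3, known from neural and vessel laminins, by 0.32. LAMC1 lost its call without H196_Mo replicate 3 (adjusted p = 0.0675), and LAMC3 without H196_Co replicate 3, H196_Mo replicate 1 or H196_Mo replicate 3 (0.0522 to 0.115). LAMA5, LAMB1 and LAMB2 did not pass, at 0.17, 0.12 and 0.04. LAMA5 stood at 13.5, 17.8 and 17.8 FPKM in H196_Co, and LAMC1 at 23.5, 22.2 and 20.8 in H196_Mo and 23.9, 27.4 and 25.3 in H196_Co.

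ITGB3 stood at 3.77, 4.14 and 4.39 FPKM in H196_Mo and 5.02, 6.4 and 5.88 in H196_Co. The groups did not overlap, with 0.57 (SE 0.09, adjusted p = 0.000284), just under the fold limit, and it passed the limit without H196_Co replicate 1 (0.64) or H196_Mo replicate 3 (0.63). ITGA3 stood at 119, 129 and 121 FPKM in H196_Co and rose by 0.22 (adjusted p = 0.03). ITGA5 stood at 19.5, 17.6 and 18.4 and rose by 0.24 (adjusted p = 0.0255). With library totals alone ITGA3 was 0.15 (adjusted p = 0.112), ITGA5 0.16 (0.1) and ITGA2B 0.39 (0.0625), so these 3 calls depend on the scaling. Each of them was also lost when 1 of several libraries was left out, with an adjusted p of up to 0.108, 0.0986 and 0.155. ITGB1, ITGB5 and ITGA6 stood at 374, 401 and 386, 43.4, 42.4 and 44.4 and 54.7, 66.3 and 59.03 FPKM in H196_Co, with log2 fold changes of 0.04, -0.06 and 0.15 that did not pass. ITGB4 was 0.27 (SE 0.13, adjusted p = 0.147), with 1.16, 1.3 and 1.18 FPKM in H196_Co. ITGAV stood at 32.4, 24.9 and 26.8 FPKM in H196_Mo and 20.1, 26.01 and 21.4 in H196_Co, overlapping, with -0.24 (adjusted p = 0.0629). The members too low for the test in H196 cells were ITGA9, ITGA11, ITGAD, ITGAL, ITGAX, ITGB7, LAMA1, LAMA4 and LAMB4, with 11 counts at most in any library.

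**Figure D5:**
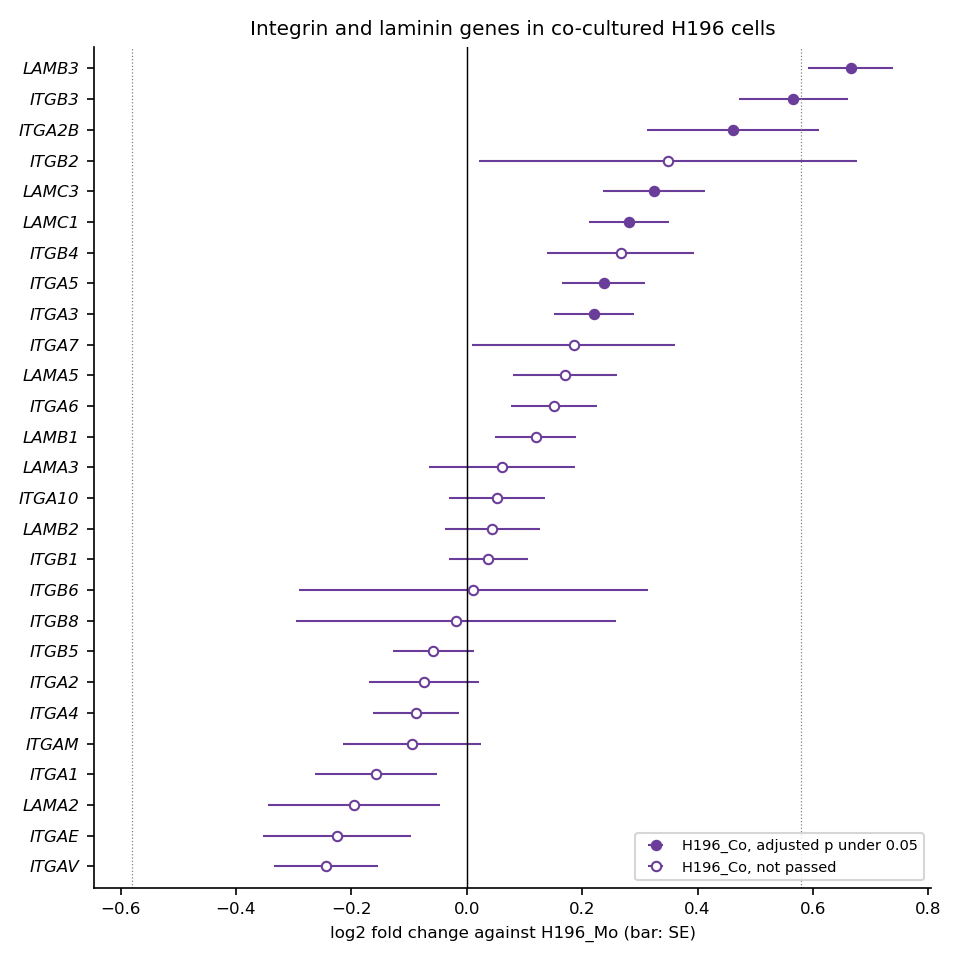
Log2 fold change of H196_Co against H196_Mo (x axis) of 27 members tested in H196 cells; bars are SE, filled points have an adjusted p under 0.05 and dotted lines mark the fold limit of 0.58. The 7 filled points all lie to the right of 0, with LAMB3 at 0.67 the farthest.

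Around these, HSPG2, the basement membrane proteoglycan perlecan, rose by 0.60 in H196_Co as the 1 DEG among 15 basement membrane partners tested, of which 6 rose and 9 did not pass, against 12% that rose over all genes. Of 15 other integrin ligands tested 8 rose and 7 did not pass, among those that rose CCN1 by 0.86, CCN2 by 0.85 and TNXB by 0.80. PLAUR, the urokinase receptor that associates with integrins, rose by 0.73 as 1 of 6 tetraspanins and associated proteins that rose, of 10 tested, while of 26 integrin adaptors tested 2 rose and 1 fell.

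Whether a response differed between the lines was tested as the difference of their co-culture effects over all 15 libraries. It was higher in MRC5 cells for 6 members and lower for 4 as DEGs, against 12.1% and 12.6% of all genes. The 6 include ITGA2B, which passed the count filter only through H196 cells. With limma on log2(FPKM + 1) the members were 2 and 2, and over all genes 822 and 1560 in place of 1644 and 1713. ITGB5 had the smallest p of these (1.14, SE 0.08, adjusted p = 1.57e-12), having risen in fibroblasts with H196 and not passed in H196 cells. LAMA5 and LAMA3 differed in the other direction, by -0.84 and -1.06. On log2(FPKM + 0.1) in limma the LAMA3 difference was -0.26 (adjusted p = 0.41), so its call was not kept on that scale. ITGB3 rose in both lines and the difference was 0.55 (adjusted p = 0.000168), under the fold limit. For LAMB3 the difference was -0.28 (adjusted p = 0.0189), higher in H196 cells, and it lost its call when any 1 MRC5_coH196 library was left out (adjusted p = 0.0561 to 0.116) or MRC5_Mo replicate 1 (0.0512).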

How the data were processed

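Per the labels and methods, poly(A) RNA was sequenced on a BGISEQ-500 and reads were filtered with SOAPnuke, with HISAT2 2.1.0, Bowtie2 2.3.4.3 and RSEM 1.3.1 in the submitters' processing notes and GRCh38.p13 as the build. The authors deposited expected counts, FPKM and TPM per gene and library in 1 table for each line, and columns of their own comparisons that were not used. FPKM was printed as deposited, and the deposited TPM was used for no result printed here. Expected counts were rounded and tested with edgeR 4.0.16 (quasi-likelihood, TMM, filterByExpr, group means) in R 4.3.3, with Benjamini-Hochberg adjustment over all genes tested. The 9 MRC5 and the 6 H196 libraries were fitted separately, and all 15 together for comparisons between lines. The fits were tested on simulated data. Intervals of count ratios are exact, at 95%, and cover counting error only.

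Counts cover all members, of which 1 is not reported here by itself. Values per library, in some or all groups, are given for other members that were DEGs in a comparison within a line (ITGAE by range), ITGB4, LAMA3 and the most abundant members (6 integrins and 4 laminins by mean FPKM). Other genes named are up to 3 DEGs per list by fold, at 10 CPM or more, for each comparison with a mono-culture. The DEGs of the adaptor and ligand lists that fell in MRC5_coH196 are named as well, without these limits. Other genes' markers and levels are given for context. Members and lists were chosen with earlier results of these data known. Alternatives were DESeq2 1.42.0, other scalings, filters and fold limits, limma 3.58.1 on log2 FPKM with 2 pseudocounts, a replicate block, and leaving out each library. Replicate numbers did not pair the libraries: the 12 correlations of same-numbered libraries ran from -0.151 to 0.081 and 0 passed 0.1. Whether partner RNA was present was examined after seeing the data.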

Additional observations from a re-analysis of the deposited data

Results flagged for a closer look

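For each of the 9 members named here, the co-culture response differed between MRC5 cells and H196 cells when the difference itself was tested as an interaction term over the 15 libraries (edgeR's quasi-likelihood test, Benjamini-Hochberg adjustment). A positive value means that the log2 fold change was higher in MRC5 cells with H196 than in H196 cells with MRC5. The beta subunits gave 1.14 for ITGB5 (adjusted p = 1.57e-12), 1.14 for ITGB8 (adjusted p = 0.00405) and 0.92 for ITGB4 (adjusted p = 0.018). The ITGB4 difference lost its call without MRC5_coH196 replicate 1 (0.81, adjusted p = 0.055) or MRC5_Mo replicate 1 (0.80, adjusted p = 0.0618).

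The alpha subunits gave 2.51 for ITGA2B (adjusted p = 0.000654), 0.68 for ITGA1 (adjusted p = 1.38e-05) and -1.17 for ITGA10 (adjusted p = 0.00106). ITGA2B rested on 5 counts in MRC5_Mo and 38 in MRC5_coH196, and ITGA1 on fractional expected counts. ITGA2B was too low for the fit of MRC5 cells alone and entered this fit through the H196 libraries (61 to 112 counts). Its difference is therefore not read as support. The laminin chains gave 0.70 for LAMB2 (adjusted p = 6.21e-07), -0.84 for LAMA5 (adjusted p = 4.7e-07) and -1.06 for LAMA3 (adjusted p = 0.00327). With limma on log2(FPKM + 1), which shrinks changes of low genes, 3 of these differences no longer passed the adjusted p: LAMA3 (-0.06, adjusted p = 0.618), ITGB4 (0.05, adjusted p = 0.584) and ITGA2B (0.003, adjusted p = 0.982). On log2(FPKM + 0.1) LAMA3 was -0.26 (adjusted p = 0.41) and ITGB4 0.46 (adjusted p = 0.103).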

How the results depend on the processing

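With the replicate block the members called as DEGs were 10, 3, 9, 1, 28 and 10 in the order of MRC5_coH196 against MRC5_Mo, MRC5_coH69 against MRC5_Mo, MRC5_coH196 against MRC5_coH69, H196_Co against H196_Mo, the 2 lines alone and the difference of responses, the same counts as without it. Only ITGA3 in H196_Co lost its adjusted p (0.0637) under the block, and the numbers did not pair the libraries. With limma on log2(FPKM + 1) the counts were 4, 1 and 3 in the MRC5 comparisons and 4 for the difference of responses. Over all genes that setting gave 915 higher and 2082 lower, 17 and 1, 821 and 1746, and 822 and 1560. With no fold limit the member counts were 23, 9, 21 and 8 in the 4 comparisons within a line, and with a limit of 1 they were 5, 0, 3 and 0, and 5 for the difference of responses. Over all genes no limit gave 4765 higher and 4757 lower, 484 and 375, 4574 and 4695, and 1542 and 996. A limit of 1 gave 969 and 595, 9 and 0, 875 and 478, 132 and 15, and 742 and 515 over all genes. Leaving out 1 library gave member counts of 10 to 12, 1 to 4, 9 to 11, 1 to 2, 27 to 28 and 8 to 12. The lowest MRC5_coH69 count was without its replicate 1, where over all genes 44 were higher and 19 lower. In H196_Co a second DEG was called without H196_Co replicate 1 or H196_Mo replicate 3 (ITGB3) and without H196_Mo replicate 2.

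Signs turned for 7 results, the cause of which was not tested. With library totals, log2(FPKM + 1) and log2(FPKM + 0.1) in turn, LAMA1 with H196 was -0.0136, -0.011 and -0.0132, and ITGA5 was -0.026, -0.0189 and -0.019 against MRC5_Mo and -0.0405, -0.0358 and -0.036 against MRC5_coH69. LAMA3 in H196_Co was -0.0126, -0.000194 and -0.00348, and ranged from -0.0621 (without H196_Co replicate 2) to 0.16 over the libraries left out. Between the lines ITGA3 was -0.104, -0.119 and -0.12, and ITGAV -0.0232, -0.038 and -0.039. On both FPKM scales ITGA3 passed in limma in this opposite direction (adjusted p = 0.037 and 0.0361), so its call between the lines turned with the scale. ITGB4 with H69 was -0.0071 with library totals, -0.138 without MRC5_coH69 replicate 2, -0.118 without MRC5_Mo replicate 1 and -0.0506 without MRC5_Mo replicate 3, and ranged from -0.138 to 0.209 over all libraries left out. Of 110 gene results 78 neither lost the test nor turned under any alternative run. The 110 were those that passed the main test, with ITGB4 and LAMA3 added. A result was skipped where an alternative left its gene out, so with at least 10 counts in every library 96 were compared. The 110 also hold calls between the lines whose direction was set by the count filter. The 78 are therefore not read as support. ITGB4, LAMA3 and ITGA2B rest on few counts in fibroblasts, which limits their precision.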
